A study of Mus musculus with 4 samples.

Results

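A set of 11034 genomic regions was listed as bound by the corepressor TLE3 in adipocytes of all 3 mouse fat depots studied, out of 69599 regions listed in at least 1 depot (15.9%, 95% Wilson interval 15.6 to 16.1%). A region was counted as common when its identifier stood in the deposited lists of all 3 depots, which were the epididymal (eWAT) and the inguinal (iWAT) white fat and the brown fat (BAT). The common regions made up 21.6% of the eWAT list of 51015 regions, 21.9% of the iWAT list of 50456 and 73.4% of the BAT list of 15042. The members were thus chosen by the TLE3 and input values behind each list, and their TLE3 values are given as a description with no test. All intervals here are 95% intervals and cover counting error only.

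TLE3 belongs to the Groucho family of corepressors, which do not bind DNA directly and are brought to it by transcription factors, among them TCF/LEF factors of the Wnt pathway and HES factors of the Notch pathway. In adipocytes TLE3 is known as a partner of PPARγ, the master nuclear receptor of fat cell differentiation, and as an opponent of the thermogenic programme of brown and beige fat. White fat mainly stores lipid and secretes hormones, while brown fat burns lipid for heat.

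The cells came from male NMRI mice 4 to 5 weeks old, with the fat of 10 to 15 animals pooled. Stromal-vascular cells of the 3 depots were turned into adipocytes in a medium holding 30 nM insulin plus rosiglitazone at 1 µM, a PPARγ agonist that every culture received. Harvest was 8 days after plating, and cultures had to exceed 50% differentiation. BAT was a pool of interscapular, cervical and axillary fat. Fixation used disuccinimidyl glutarate (2 mM, 15 min) followed by formaldehyde (1%, 30 min), and chromatin was precipitated with an anti-TLE3 antibody. Each depot gave 1 TLE3 library, and the only input came from iWAT adipocytes. Depot and library therefore cannot be told apart, and no test between depots was possible. The cultures can still hold undifferentiated stromal cells, whose part in the signal was not tested.

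Values are scaled reads, the reads in a region of 230 bp between start and end, which the authors brought to the same total in each library. One read was worth 0.883 scaled reads for eWAT, 0.526 for iWAT, 2.77 for BAT and 0.651 for the input, so BAT was the shallowest library and its values are the least precise. If that total was 10 M reads, an assumption, the eWAT and iWAT libraries had 11.3 M and 19.0 M reads, BAT had 3.62 M and the input 15.4 M. A region stood in a depot's list with a value of 15 or more that was also 10 or more times the input, limits that were read from the values. The exceptions were 9 regions that met both limits for eWAT and were not in the eWAT list. Coordinates of the regions are of the mm9 build, and distances and annotations are those of the deposited tables.

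At 79 genes a common region covered at least 100 of the 250 bases before the start site, as placed by the deposited distance. For 41 of these genes RefSeq gave a single promoter entry (build GRCm38.p6). The following 250 bases before the start site are shown for 6 of them as examples. They were not chosen by strength alone, since a promoter not shown carried a stronger region than that of Lcn2. The motif shares over all 41 are given further on. Each sequence runs 5′ to 3′ toward the start site, with capitals for the motifs searched. Whether the start sites of both builds coincide was not checked.
Camp promoter: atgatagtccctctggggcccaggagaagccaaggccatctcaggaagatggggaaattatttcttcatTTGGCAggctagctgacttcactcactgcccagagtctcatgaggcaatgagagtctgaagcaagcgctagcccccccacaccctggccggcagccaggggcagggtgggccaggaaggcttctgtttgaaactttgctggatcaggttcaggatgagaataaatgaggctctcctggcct
Hal promoter: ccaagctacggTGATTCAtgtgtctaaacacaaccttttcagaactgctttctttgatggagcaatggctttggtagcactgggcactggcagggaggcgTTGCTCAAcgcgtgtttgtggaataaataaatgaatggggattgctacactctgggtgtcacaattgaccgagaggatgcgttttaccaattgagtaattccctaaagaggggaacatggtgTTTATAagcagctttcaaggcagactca
Lrtm1 promoter: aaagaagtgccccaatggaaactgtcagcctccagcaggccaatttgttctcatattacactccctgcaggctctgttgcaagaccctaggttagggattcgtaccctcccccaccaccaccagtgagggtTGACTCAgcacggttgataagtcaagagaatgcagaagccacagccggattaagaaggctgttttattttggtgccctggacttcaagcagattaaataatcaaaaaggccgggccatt
Olfr99 promoter: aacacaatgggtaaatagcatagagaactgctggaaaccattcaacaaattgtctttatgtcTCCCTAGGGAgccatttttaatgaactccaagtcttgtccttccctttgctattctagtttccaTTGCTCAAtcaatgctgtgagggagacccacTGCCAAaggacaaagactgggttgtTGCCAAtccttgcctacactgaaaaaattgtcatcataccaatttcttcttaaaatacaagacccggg
Olfr98 promoter: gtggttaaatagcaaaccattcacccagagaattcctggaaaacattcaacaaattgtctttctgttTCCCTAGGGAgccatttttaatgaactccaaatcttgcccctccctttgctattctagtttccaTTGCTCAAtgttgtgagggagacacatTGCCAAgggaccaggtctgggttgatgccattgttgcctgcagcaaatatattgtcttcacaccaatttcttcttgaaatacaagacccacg
Lcn2 promoter: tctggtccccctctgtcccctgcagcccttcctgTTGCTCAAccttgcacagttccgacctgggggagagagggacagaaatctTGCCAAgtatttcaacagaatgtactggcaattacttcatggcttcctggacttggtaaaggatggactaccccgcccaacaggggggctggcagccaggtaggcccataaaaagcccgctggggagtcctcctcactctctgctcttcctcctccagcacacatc

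The motifs of AP-1, C/EBP, NF1, TCF/LEF, EBF and nuclear receptors and the TATA box were searched on both strands, with the letters given beside their shares further on. The Camp sequence (chr9:109849457-109849706, minus strand) holds an NF1 half-site, and its common region ran from 286 to 56 bases before the start site. Camp encodes cathelicidin, an antimicrobial peptide. The Hal sequence (chr10:93488518-93488767, plus strand) holds an AP-1 and a C/EBP match and a TATA match on the opposite strand. Hal encodes the enzyme that begins histidine breakdown. The Lrtm1 sequence (chr14:29017958-29018207, plus strand) holds 1 AP-1 match and none of the other motifs.

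Olfr99 (chr17:37280419-37280668) and Olfr98 (chr17:37263663-37263912), both on the minus strand, encode related olfactory receptors. Their promoters were identical at 208 of 261 alignment columns (79.7%), and both hold an EBF, a C/EBP and an NF1 half-site match. EBF factors are early B cell factors with known roles in olfactory neurons and in adipocytes. Reads from such similar copies can be hard to place, and how the authors treated them is not stated in the labels or headers. Lcn2 (chr2:32387740-32387989, minus strand), which encodes the secreted iron-siderophore binder lipocalin 2, holds a C/EBP and an NF1 half-site match.

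AP-1 letters (TGANTCA) stood in 11 of the 41 promoters with a common region (26.8%, 15.7 to 41.9%) and in 1592 of all 22862 single-entry promoters (6.96%). The 108 promoters under regions of both white lists that were not in the BAT list held them in 15.7% (10.1 to 23.8%), so the intervals of the common and white-only promoters overlap. Letters of the NF1 half-site (TTGGCA) stood in 17 of the 41 (41.5%, 27.8 to 56.6%), in 25.9% of the white-only promoters and in 12.7% of all promoters. C/EBP letters (TTGCNNAA) stood in 11 of the 41 (26.8%), in 26.9% of the white-only promoters and in 9.60% of all promoters. The nuclear receptor half-site (AGGTCA) was found in 26.8% of the common, 21.3% of the white-only and 13.8% of all promoters. For the TATA box (TATAAA) these shares were 14.6%, 21.3% and 13.6%. DR1, a direct repeat of the half-site with any base in place of its T and 1 base between the copies, stood in 2 of the 41 and in 0.35% of all promoters. TCF/LEF letters (CTTTGAA) also stood in 2 of the 41, with a share of 4.72% over all promoters. The same number held EBF letters (TCCCNNGGGA), against 1.85% of the white-only and 0.77% of all promoters. These 2 were the similar Olfr99 and Olfr98 promoters. A DR1 match can hold a half-site match, and the other motifs were counted separately even where they overlapped. Median GC content was 47.2% in the promoters with a common region and 52.0% in all, and its part in these shares was not tested.

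Over the common regions the median value was 60.9 for eWAT (quartiles 38.0 and 97.1) and 59.4 for iWAT (lower quartile 36.3). For BAT it was 33.2 (22.1 and 52.5), and for the input 1.30. These medians stand for 69, 113, 12 and 2 reads. Below, the highest or lowest library at a region is by scaled reads unless a value relative to the median common region is given. Such a value is the ratio of 2 libraries divided by the median of that ratio over the common regions. Regions of both white lists that were missing from the BAT list had lower medians, 37.1 for eWAT, 36.8 for iWAT and 8.30 for BAT. The common regions held 31.5% of the eWAT signal over all listed regions, 29.8% of the iWAT signal, 49.5% of the BAT signal and 18.5% of the input. By number they were 15.9% of all listed regions. Membership required a minimum value in each library, so nothing is read from their larger share by signal.

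The strongest end of each list held a larger share of common regions than the whole list. Of the 100 strongest regions, 87 in eWAT (79.0 to 92.2%), 87 in iWAT (79.0 to 92.2%) and 98 in BAT (93.0 to 99.4%) were common. Among the strongest 1000, the counts were 753, 752 and 929. Ranking and membership both use the TLE3 values, so nothing is read from these larger shares. Across the common regions Spearman correlations were 0.735 between eWAT and iWAT, 0.625 between eWAT and BAT and 0.545 between iWAT and BAT. These are correlations over regions, which share libraries and are not replicates. The input moved with them, with correlations of 0.527 with eWAT, 0.459 with iWAT and 0.616 with BAT, and its median rose from 0.65 in the weakest 20% of common regions to 3.25 in the strongest 20%. The part of the input in these values was not tested.

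The region with the highest lowest value over the 3 TLE3 libraries lay in an intron 147 kb from the nearest start site, that of Tasp1 (chr2:139745533-139745763). Tasp1 encodes a protease that cleaves MLL family proteins, and the region had 433 scaled reads for eWAT, 267 for iWAT, 567 for BAT and an input of 14.3. Next came an intergenic region near Frem3 (chr8:83124799-83125029), an extracellular matrix gene, with 345, 253 and 453. Aldh1a2 encodes an enzyme that makes retinoic acid, and the intergenic region 102 kb from its start site (chr9:71165052-71165282) had 349.7, 249.6 and 528. In all 3 of these regions BAT was the highest library and iWAT the lowest.

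An intronic region 86.6 kb from the start site of Phex (chrX:153766460-153766690), an endopeptidase gene of phosphate balance, had 348 for eWAT, 246 for iWAT and 677 for BAT. Near Slc22a23 (chr13:34457131-34457361), a membrane transporter gene, eWAT at 353 and BAT at 343 both stood above iWAT at 246. Other regions had nearly the same scaled reads in all 3 libraries, which places BAT above the proportion of the median common region. At Map3k14 (chr11:103153480-103153710), which encodes the kinase NIK of the noncanonical NF-κB pathway, the values were 258, 239 and 254, and relative to the median common region BAT was 1.65-fold above eWAT (1.29 to 2.10). At Hs6st1 (chr1:35584900-35585130), a heparan sulfate sulfotransferase gene whose start site is 540.2 kb away, they were 253, 232 and 252. An intronic region near the noncoding gene Gm19303 (chr15:51195212-51195442) had 269, 239 and 259.9 with an input of only 3.25. The nearest gene is a label of distance: of these 12 strongest regions, only that of Camp lay within 1 kb of a start site.

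**Figure D1:**
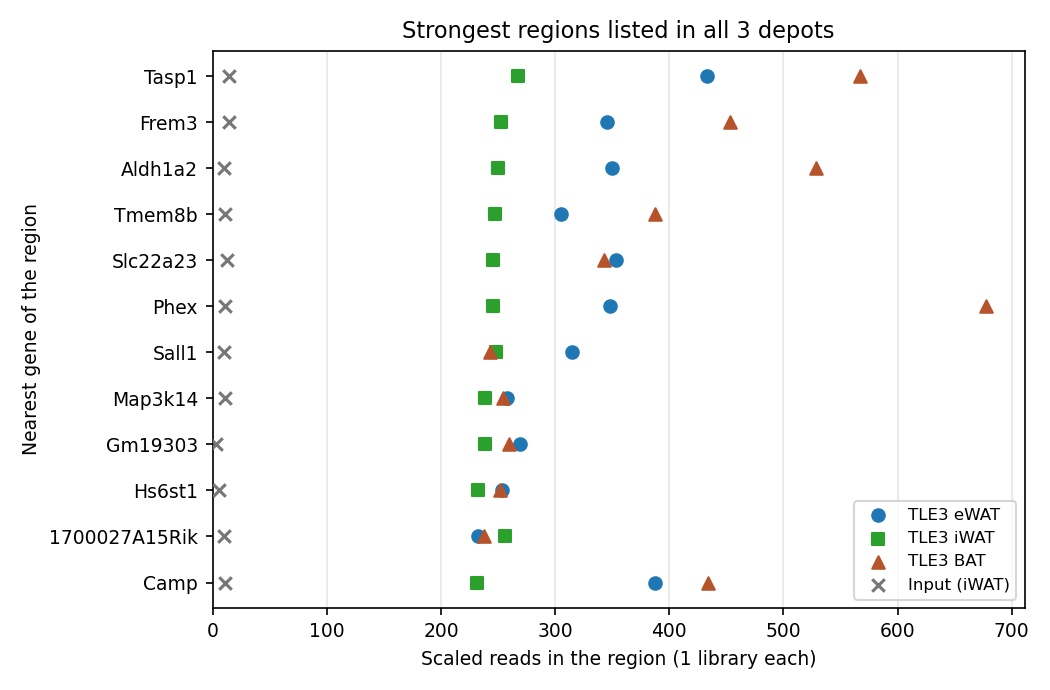
Scaled reads (x axis) in the 4 libraries at the 12 common regions whose lowest TLE3 value was highest, named by nearest gene (y axis); each point is 1 library. All TLE3 values lie above 230 scaled reads, all input values below 15, and BAT ranges most widely, from 238 to 677.

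Whether a white region was also listed in BAT went with its white value. The 34055 regions of both white lists were split into 10 equal groups by their mean white value. In the lowest group 12.7% were listed in BAT (11.6 to 13.8%), and in the highest 67.5% (65.9 to 69.1%). A BAT value of at least 15 was reached by 92.6% of the highest group, and 853 of the 1106 regions of that group not listed in BAT reached it too. There the input limit kept them off the BAT list, and their median input was 5.21 against 3.25 at the common regions of the group. Over all regions of the white lists alone, 4131 of 23021 (17.9%) had a BAT value of at least 15, and 12.6% had 0 BAT reads. With 1 BAT read worth 2.77 scaled reads, a count of 0 does not show that binding was absent.

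**Figure D2:**
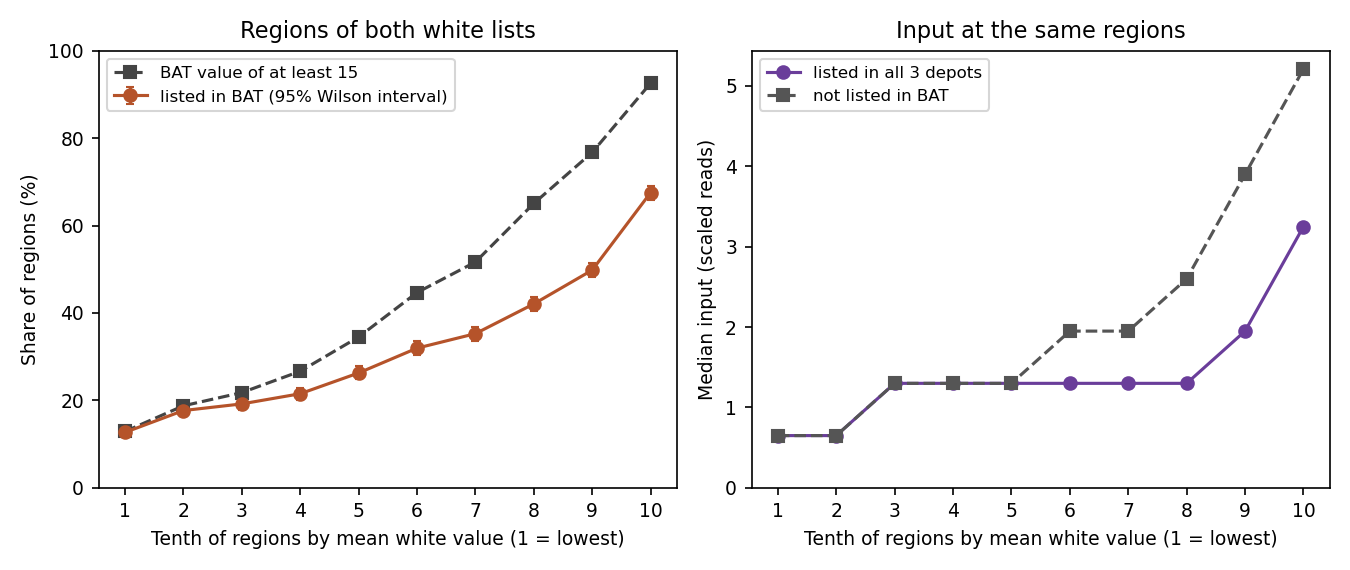
Left, share of the regions of both white lists (y axis, %) that were listed in BAT (circles, 95% Wilson intervals) or had at least 15 BAT scaled reads (squares), by 10 equal groups of mean white value (x axis). Right, median input (y axis, scaled reads) of the common regions and of those not listed in BAT; the share listed rises from 12.7% to 67.5%, and the highest group has a median input of 3.25 at common and 5.21 at unlisted regions.

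The limits cut through regions with similar values. Members with the lowest eWAT value, 15.0 scaled reads or 17 reads, included regions near Cdh7, Mettl21e and Adam23. Just outside lay an intergenic region 28.3 kb from the start site of Lep (chr6:29038431-29038661), the leptin gene, with 68.9 for eWAT, 52.0 for iWAT and 58.1 for BAT. It was absent from the iWAT list because its iWAT value was just under 10 times its input of 5.21. The regions near Sik1 and Gm20751 were just outside in the same way, with iWAT values of 38.9 and 19.4 and inputs of 3.90 and 1.95. Among the strongest white regions not listed in BAT were an intron of Fermt2 (chr14:46127635-46127865), an integrin adaptor gene, with 285, 242 and 49.8, and an intergenic region near the collagen gene Col6a2 (chr10:76131810-76132040) with 276, 205 and 41.5. Both had more BAT reads than the median common region.

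Genes that handle fat often had a common region. A region counted for its nearest gene when the start site was at most 50 kb away, and by this rule 3630 of 21900 protein-coding genes (16.6%) had at least 1 common region. For 51.5% of all coding genes at least 1 listed region of any kind was found, and 32.2% of those had a common one. The 19 gene lists below were drawn up with earlier results of these data known, so their shares are a description and no test was run. Together they held 370 genes, of which 133 (35.9%) had a common region.

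Of 15 genes of fatty acid uptake, 8 had a common region (53.3%). Cd36, which encodes a fatty acid transporter, had 8 of them, 1 at the promoter and the others within 35.4 kb, with 18.5 to 126 scaled reads for eWAT, 15.2 to 104 for iWAT and 24.9 to 71.9 for BAT. Lpl encodes the lipase that frees fatty acids from lipoproteins and had 4, the strongest of them upstream (chr8:71372738-71372968) with 123, 85.7 and 80.2. Its inhibitor gene Angptl4 had an intronic region (chr17:33916288-33916518) with 90.1, 91.4 and 52.5. Fabp4, the adipocyte fatty acid carrier, had 2 weaker upstream regions, with eWAT values of 33.6 and 34.4, iWAT values of 21.0 and 27.9 and a BAT value of 16.6 in both, which is 6 BAT reads. Gpihbp1, Slc27a1 and Scarb1 were among the 7 genes with none.

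Lipid synthesis and storage genes had a common region in 16 of 25 cases (64.0%). The strongest lay 39.9 kb from the start site of the caveolin gene Cav2 (chr6:17191148-17191378), with 241 for eWAT, 177 for iWAT, 301 for BAT and an input of 1.95. Cav1, which encodes the main caveolin of fat cell caveolae, had an intronic region (chr6:17259328-17259558) with 144, 119.8 and 118.9. Scd1, a fatty acid desaturase gene, had 4 common regions, and the one at 31.8 kb (chr19:44450268-44450498) had 99.8, 122 and 133. Cidec, a lipid droplet protein gene, had 2, of which the intronic one had 56.5, 48.9 and 63.6. Dgat2, Lpin1, Plin2, Plin4 and Srebf1 also had common regions. Fasn and Plin1, the genes of fatty acid synthase and perilipin 1, had none, with 2 and 1 listed regions of another kind.

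Lipolysis genes had the highest share of the lists, 11 of 15 (73.3%, 48.0 to 89.1%), and 14 of the 15 had a listed region of any kind. G0s2 encodes an inhibitor of the main triglyceride lipase, and an intergenic region 5.35 kb from its start site (chr1:195104613-195104843) had 107 for eWAT, 96.2 for iWAT and 71.9 for BAT. Adrb1, a beta-adrenergic receptor gene, had a region (chr19:56752086-56752316) with 85.7, 109 and 69.1. The lipase genes Pnpla2 and Lipe, the coactivator gene Abhd5 and the receptor gene Adrb3 also had common regions.

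Adipokine genes had a common region in 6 of 14 cases (42.9%). Adipoq, the adiponectin gene, had 1 common region of 7 listed ones, 2.02 kb from its start site (chr16:23144472-23144702), with 153, 169.7 and 91.3. Vegfa, the angiogenic factor gene, had an intergenic region (chr17:46146182-46146412) with 134, 92.0 and 99.6. At Nrg4, a secreted growth factor gene known from brown fat, an intronic region (chr9:55103518-55103748) had 79.5, 50.5 and 24.9, with 9 BAT reads. Relative to the median common region, BAT at Nrg4 was 0.525-fold of eWAT (0.233 to 1.04) and 0.782-fold of iWAT (0.347 to 1.55), and both intervals include 1. Of the 8 markers used to check the adipocyte label (Pparg, Adipoq, Fabp4, Plin1, Cidec, Lpl, Cd36 and Lep), all but Plin1 and Lep had a common region. Binding near a gene is not its expression, which was not measured here.

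Among adipocyte transcription factor genes, 14 of 23 (60.9%) had a common region, with 38 regions in all. Pparg had 7 common regions out of 23 listed. They ran from 17.7 to 214 scaled reads for eWAT, from 21.6 to 236 for iWAT and from 16.6 to 102 for BAT. The promoter region 0.24 kb from a Pparg start site (chr6:115371724-115371954) had 106, 95.6 and 80.2, and the intronic region 2.56 kb inside the gene had 162, 117 and 66.4. Klf4, a factor of early adipogenesis, had 3 common regions, the strongest at 30.8 kb (chr4:55575988-55576218) with 108, 126 and 66.4. Zfp423, a zinc finger factor of white fat commitment, had an intronic region (chr8:90360636-90360866) with 87.4, 161 and 113. By scaled reads Zfp423 was highest in iWAT, while relative to the median common region BAT was 1.11-fold of iWAT (0.783 to 1.55). Cebpa had a single intergenic region with 52.1, 41.5 and 22.1, while Cebpb, Cebpd, Klf5 and Nr1h3 had none.

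Thermogenic genes had a common region in 12 of 30 cases (40.0%). Ucp1, which encodes the uncoupling protein of brown fat, had 1 common region 2.46 kb upstream (chr8:85811676-85811906), with 25.6 for eWAT, 23.1 for iWAT and 44.2 for BAT. BAT was thus the highest library there, on 16 reads. Irf4, a factor of thermogenic transcription, had an upstream region (chr13:30814410-30814640) with 135, 73.1 and 49.8, highest in eWAT. Dio2, the thyroid hormone activating deiodinase gene, had 2 weaker regions with 18.5, 21.6 and 19.4 and with 30.9, 76.7 and 16.6. Bmp8b had an intronic region with 42.4, 57.3 and 41.5. Prdm16, Zic1, Lhx8 and Elovl3 had no common region, and 0 to 3 listed regions each.

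Insulin and glucose genes had a common region in 15 of 30 cases (50.0%). Pfkp, a phosphofructokinase gene, had an intronic region (chr13:6638649-6638879) with 117 for eWAT, 82.5 for iWAT and 58.1 for BAT. Akt2, Irs2, Hk2 and Tbc1d4, all of the path from the insulin receptor to glucose use, had common regions, and Slc2a4, the insulin-responsive glucose transporter gene, had none.

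In the Groucho family itself, common regions were found at Tle2, Tle3, Tle4 and Tle6, 4 of the 6 genes, and not at Tle1 and Aes. Tle6 had an intronic region (chr10:81059446-81059676) with 235, 148 and 207. At Tle3 there were 4 common regions, all upstream, and besides the strongest one they had 131.6, 72.5 and 47.0, then 102, 88.8 and 108, then 46.8, 21.0 and 52.5. The median over the 8 Groucho regions was 119 for eWAT, 118.5 for iWAT and 111 for BAT, against 60.9, 59.4 and 33.2 over all common regions. Other cofactor genes had a common region in 8 of 25 cases (32.0%), with 1 of them within 10 kb. Among these, Hdac4 (chr1:94033822-94034052), a histone deacetylase gene, had 214, 133 and 141, and Tbl1xr1 (chr3:21955577-21955807), a subunit gene of the NCoR complex, had 213, 167 and 83.0. Ncor1 and Hdac3 had none.

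Wnt and Notch target genes had a common region in 10 of 25 cases (40.0%). Heyl, a Notch target and transcriptional repressor gene, had an upstream region (chr4:122903081-122903311) with 166 for eWAT, 130.3 for iWAT and 318 for BAT, so BAT was highest. Tcf7, which encodes a TCF factor, had an intronic region (chr11:52083434-52083664) with 106, 107 and 111. Nkd1, a Wnt feedback inhibitor gene, had an intronic region (chr8:91079650-91079880) with 147, 119 and 80.2. Axin2, another Wnt feedback gene, had 1 weak region within 50 kb, with 22.1, 45.7 and 22.1. Farther away a run of 5 common regions, spanning 17.6 kb (chr11:108841833-108859406), had Axin2 as its nearest gene and summed to 771, 636 and 564.

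Nuclear oxidative phosphorylation genes had a common region in 5 of 40 cases (12.5%, 5.46 to 26.1%) and mitochondrial fatty acid oxidation genes in 3 of 20 (15.0%, 5.24 to 36.0%), both near the 16.6% of all coding genes. Atp5g1, an ATP synthase subunit gene, had a region 1.21 kb upstream (chr11:95938104-95938334) with 88.3, 72.5 and 83.0. Acadl, a long-chain acyl-CoA dehydrogenase gene, had an upstream region (chr1:66918192-66918422) with 96.3, 74.1 and 47.0. Etfa, which passes electrons from fatty acid oxidation to the respiratory chain, had an intronic region with 63.6, 125 and 16.6.

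Markers of other cell types were counted in the same way. Preadipocyte and fibroblast markers had a common region in 10 of 24 cases (41.7%). Col3a1 had an upstream region (chr1:45332911-45333141) with 46.8, 115 and 38.7, highest in iWAT, and Tgfbr2 one with 80.4, 60.4 and 63.6. Macrophage markers had a common region in 2 of 15 cases, endothelial in 4 of 14, mesothelial in 2 of 10, skeletal muscle in 2 of 16, hepatocyte in 2 of 15 and neuronal in 3 of 16. Values there could still be high. Syt1, a synaptic vesicle gene, had an intronic region (chr10:108416788-108417018) with 199.6, 123 and 102, and Upk3b, a mesothelial marker, one (chr5:136495890-136496120) with 193, 107 and 60.8.

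**Figure D3:**
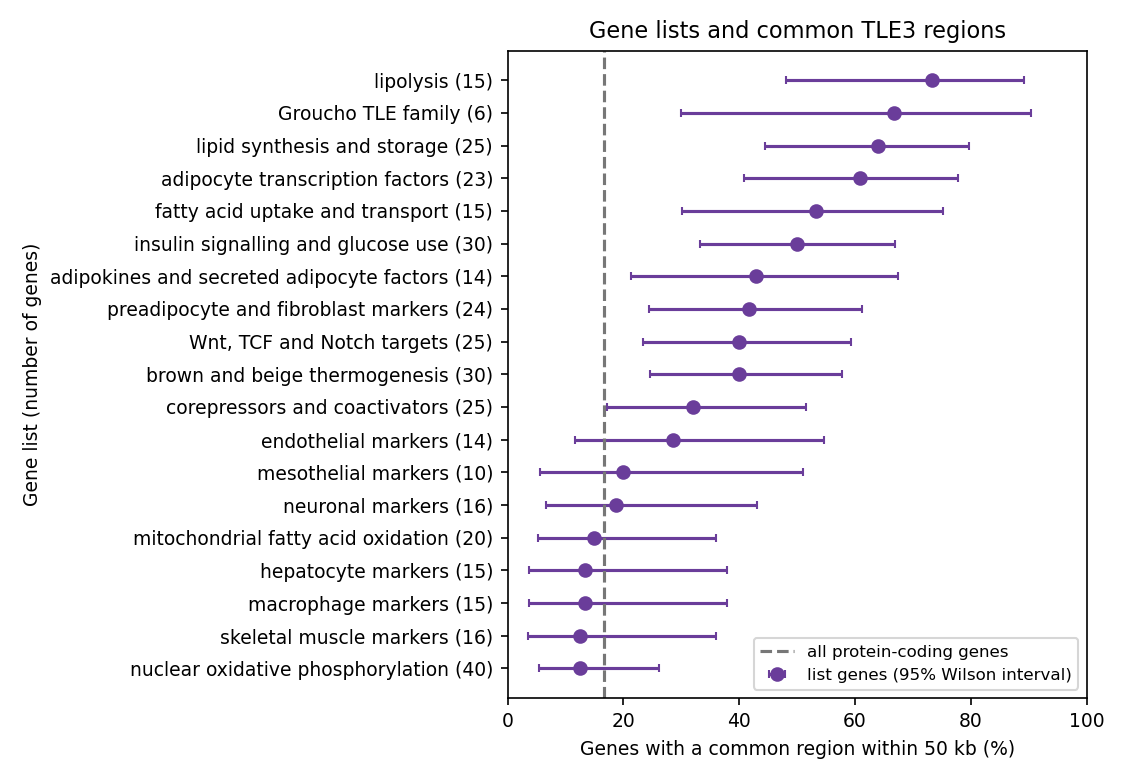
Share of the genes of each list (x axis, %) with a common TLE3 region within 50 kb of the start site, with 95% Wilson intervals for counting error; the dashed line is the 16.6% of all protein-coding genes. Lipolysis genes reach 73.3% and nuclear oxidative phosphorylation genes 12.5%.

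Some common regions lay close together. Of the 11034, 3000 (27.2%, 26.4 to 28.0%) had another common region within 10 kb, against 19.0% (18.5 to 19.5%) of the white-only regions and 17.9% of all listed regions. For regions of eWAT and BAT only it was 24.9% (22.1 to 28.0%), an interval that overlaps that of the common regions. For regions of iWAT and BAT only it was 18.2% (15.9 to 20.7%). Any other listed region within 10 kb was found for 71.1% of the common and 64.4% of all listed regions. Linking common regions at most 10 kb apart gave 1348 runs of 2 or more and 11 runs of 5 or more. The longest runs had 6 regions. One lay near the noncoding gene 2310001H17Rik (chr6:129162579-129180480), 1 near Cpeb2, a translational regulator gene (chr5:43508202-43529283), and 1 in Dlc1 (chr8:37957677-37967084), packed into 9.41 kb.

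By gene, 4348 named genes had a common region within 50 kb, 1285 had 2 or more and 60 had 5 or more. Dlc1, which encodes a GTPase activating protein and tumour suppressor, had the most, 11 of its 27 listed regions. They had 26.5 to 214 scaled reads for eWAT, 34.2 to 193 for iWAT and 16.6 to 147 for BAT. The strongest Dlc1 region was intronic (chr8:37681275-37681505), with 214, 193 and 147, in the same order of libraries as at the median common region. Sorbs2, a cytoskeletal adaptor gene, had 7, and Fbln5, an elastic fibre gene, had 6. Daam1, a formin gene of Wnt planar polarity signalling, and the RNA-binding protein gene Celf2 had 6 each. The noncoding genes Gm29684, 2310001H17Rik and B930092H01Rik also stood among the 12 genes with the most.

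Ratios between libraries lay within 2-fold of their median at most common regions. Ratios are given relative to the median common region, whose eWAT value was 1.11 times its iWAT value, and whose BAT value was 0.596 times its eWAT value and 0.631 times its iWAT value. In all 3 pairs 7159 regions (64.9%) stayed within 2-fold of that median. For eWAT over iWAT, 290 were at least 2-fold higher and 1074 at least 2-fold lower, where over all 69599 listed regions 16.6% were higher and 24.6% lower. For BAT over eWAT, 1049 were higher and 1006 lower (15.9% and 26.3% of all regions), and for BAT over iWAT 1099 and 1386 (13.1% and 30.2% of all regions). Since membership required a minimum value in each library, a narrower spread than over all regions is set by the rule, and nothing is read from it.

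The BAT split depends on the scaling. With the authors' own scaling 165 common regions were higher and 4056 lower in BAT than in eWAT, and 238 and 3864 for iWAT. Centred on the strongest 25% of all listed regions, 3590 were higher and 142 lower than in eWAT, and 4407 and 189 for iWAT. The eWAT to iWAT split was 488 to 821 with the authors' scaling and 303 to 1050 with the strongest 25%. When the whole exact interval on the reads had to lie past 2-fold, there were 46 and 447 for eWAT over iWAT, 172 and 58 for BAT over eWAT, and 237 and 68 for BAT over iWAT.

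**Figure D4:**
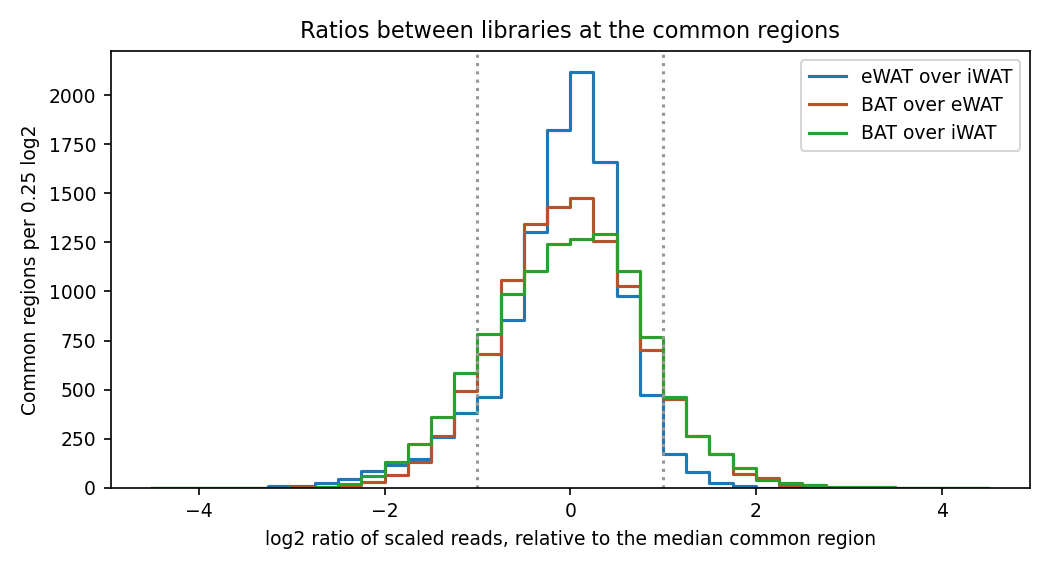
Number of common regions (y axis) by log2 ratio of scaled reads between 2 libraries, relative to the median common region (x axis, steps of 0.25); dotted lines mark 2-fold. Most regions lie between the lines in each pair, and 1074 lie below the lower line for eWAT over iWAT.

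Some common regions lay far from the median ratios. An intergenic region 2.23 kb upstream of Mmp13 (chr9:7270167-7270397), a collagenase gene, had an eWAT value of 16.8 scaled reads, against 132 for iWAT and 33.2 for BAT, or 19, 251 and 12 reads. Relative to the median common region iWAT was 8.69-fold above eWAT (exact interval 5.45 to 14.7). An intron of Thada (chr17:84821759-84821989) had 27.4, 207 and 41.5, and a region near Paqr9 (chr9:95478999-95479229), a progestin receptor family gene, had 23.0, 171 and 44.2. In all 3 of these regions iWAT had the most scaled reads. Relative to the median common region iWAT was 2.51-fold above BAT at Mmp13 (1.41 to 4.92). At Thada it was 3.15-fold above BAT (1.89 to 5.68) and at Paqr9 2.44-fold (1.48 to 4.33). On the same scale eWAT was also below BAT. The BAT value was 3.32-fold above eWAT at Mmp13 (1.47 to 7.20), 2.54-fold at Thada (1.27 to 4.85) and 3.23-fold at Paqr9 (1.62 to 6.25).

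The largest ratios of eWAT over iWAT were smaller. An intron of Daam2 (chr17:49673914-49674144), a formin gene of the same family as Daam1, had 129 for eWAT, 22.6 for iWAT and 30.4 for BAT, a ratio of 5.16 (3.65 to 7.43). A region near Gimap6 (chr6:48648994-48649224), a GTPase gene of immune cells, had 168, 31.5 and 19.4, a ratio of 4.82 (3.58 to 6.55). Across all common regions, 512 were at least 2-fold higher in iWAT than in both other libraries, and 82 in eWAT.

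BAT was far above both white libraries at a few of the named regions. An intergenic region 79.0 kb upstream of Rxra (chr2:27453564-27453794), which encodes the DNA-binding partner of PPARγ, had 26.5 for eWAT, 26.3 for iWAT and 213 for BAT. Relative to the median common region BAT was 13.5-fold above eWAT (8.73 to 21.3) and 12.8-fold above iWAT (8.88 to 18.7). A region 131 kb from the start site of Bcor (chrX:11526632-11526862), a corepressor gene, had 37.1, 48.9 and 229.5. The largest ratio of BAT over eWAT lay near Cobl (chr11:12129515-12129745), an actin nucleator gene, with 45.9, 76.2 and 456, 16.7-fold (12.1 to 23.2). The largest of BAT over iWAT lay near the microRNA gene Mir7674 (chr2:31875335-31875565), with 60.1, 18.9 and 221, 18.5-fold (12.4 to 28.3). These named BAT ratios stayed above 1 under the other scalings.

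At the other end, BAT values were at 6 or 7 reads. The region 219 kb from the start site of Tle4 (chr19:14452206-14452436), a Groucho gene, had 207.5 for eWAT, 52.6 for iWAT and 16.6 for BAT, with eWAT 7.46-fold above BAT (3.38 to 20.5). There eWAT was also 3.57-fold above iWAT (2.82 to 4.56). BAT was 0.50-fold of iWAT (0.18 to 1.13), an interval that includes 1. An intron of Fat3 (chr9:15954609-15954839), an atypical cadherin gene, had 198, 109.8 and 16.6. At Fat3 eWAT was 7.11-fold (3.22 to 19.6) and iWAT 4.18-fold (1.89 to 11.5) above BAT. Near Heg1 (chr16:33669229-33669459), a receptor gene of endothelial development, the values were 76.8, 184 and 16.6, with iWAT 7.02-fold above BAT (3.19 to 19.3). The wide intervals follow from the few BAT reads. In total 562 common regions were at least 2-fold higher and 517 at least 2-fold lower in BAT than in both white libraries.

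The most even strong regions showed the common proportion closely. A region near Lgi2 (chr5:52978439-52978669), a gene of a secreted neuronal protein family, had 217, 194 and 130.0 and a ratio of the highest to the lowest centred value of 1.01. An intron of Cav1 (chr6:17264412-17264642) had 132, 117 and 80.2 and a ratio of 1.04. Others with ratios of 1.03 or less lay near Ly86, Pde1a, Cdh26 and Il12b. They were chosen for this evenness.

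By position the common regions were much like the other listed regions. Of the 11034, 50.2% (49.2 to 51.1%) were intergenic, 45.2% (44.3 to 46.2%) intronic and 1.86% (1.62 to 2.13%) at promoters, against 49.7%, 45.4% and 2.10% of all listed regions. Within 1 kb of a start site lay 299 (2.71%, 2.42 to 3.03%), near the 3.02% of all listed regions. This share was 3.12% (2.90 to 3.35%) for the white-only and 8.61% (7.51 to 9.86%) for the BAT-alone regions. The median distance was 38.0 kb (36.8 to 39.6 kb), against 36.8 kb for white-only regions. Simple repeats held 41 of the common regions (0.37%, 0.27 to 0.50%), near the 0.32% of all listed regions. They held 0.11% of the white-only and 2.70% of the BAT-alone regions. By chromosome, the common share of listed regions ran from 12.2% on X to 17.1% on 12 among chromosomes with over 100 listed regions. In the highest of the 10 groups of white value, 2.00% of the common regions lay within 1 kb of a start site (1.50 to 2.66%), and 2.89% of those not in BAT (2.06 to 4.06%).

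**Figure D5:**
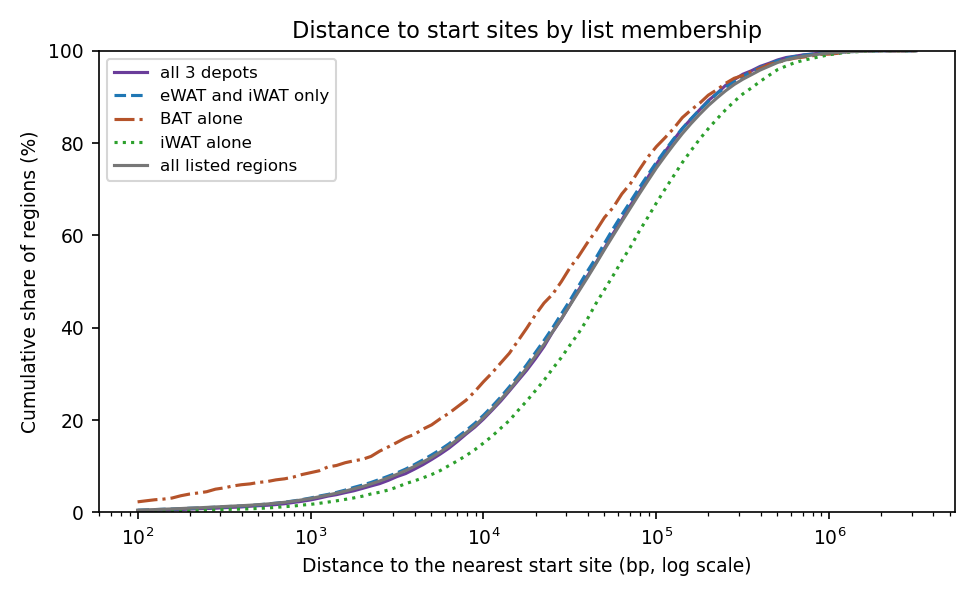
Cumulative share of regions (y axis, %) by distance to the nearest start site (x axis, bp, log scale) for the common regions and other classes of listed regions. The common curve runs with that of all listed regions, with medians of 38.0 and 38.5 kb, while BAT-alone regions lie nearer and iWAT-alone regions farther.

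Few as they were, the start-site regions included strong ones. The Camp promoter region (chr9:109752026-109752256) had 388 for eWAT, 232 for iWAT and 434 for BAT. That of Nnt (chr13:120198069-120198299), which encodes the mitochondrial transhydrogenase that makes NADPH, had 185, 166 and 484, so BAT was far the highest. Slc25a12 (chr2:71205856-71206086), a mitochondrial aspartate and glutamate carrier gene, had 171, 117 and 155. These and the other named start-site regions had inputs of at most 10.4.

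The start site of Cer1 (chr4:82531561-82531791), a secreted antagonist of BMP, Nodal and Wnt signals, had a region with 245 for eWAT, 157 for iWAT and 152 for BAT. At Lmod1 (chr1:137220334-137220564), an actin nucleator gene of smooth muscle, the values were 206, 129 and 191. The Olfr99 promoter shown above carried a region (chr17:37417391-37417621) with 298, 159 and 124 and an input of 1.30, and the Hal promoter one (chr10:92951268-92951498) with 237, 191 and 113. In both, the order of the libraries by scaled reads was that of the median common region. The Lrtm1 promoter had a region with 109, 132 and 182, that of Olfr98 one with 184, 106 and 122, and that of Lcn2 one with 97.1, 65.7 and 71.9. BAT was the highest library at Lrtm1.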

How the data were processed

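TLE3 ChIP-seq of 3 adipocyte cultures and 1 input was used as deposited, 1 library each. STAR, HOMER and mm9 come from the submitters' processing notes, which give neither versions nor roles; how peaks were called is not given in the sources consulted. The deposited values are a signal, reads per region that the authors brought to the same total in each library, per the file headers and values. The deposited peak score, 0 throughout, was not used. Within 0.1 read all values were whole multiples of what 1 read was worth, so exact intervals rest on reads.

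The 3 lists were joined by identifier, and members and gene lists were chosen with earlier results of these data known. Named regions, at most 1 per nearest gene in each rule, were the 12 with the highest lowest value, the 4 with the largest ratio in each pair and direction (mean of at least 60), the 12 most even (mean of at least 100), the 10 strongest within 1 kb of a start site, the 3 just inside and just outside the limits, the 3 strongest per gene list, the 12 genes with most regions and the 10 strongest white regions not in BAT. Further genes of the lists, such as Ucp1, Fabp4, Cebpa, Cidec and Klf4, and the Lcn2, Lrtm1 and Olfr98 promoters were named after their values were seen. Regions on chromosome 18 were counted and not named, and a few list genes are not reported here by name. RefSeq (GRCm38.p6) gave promoters and gene types, and 99.8% of 14265 gene names matched. Shares carry Wilson intervals. Calculations used Python 3.11.15, pandas 2.3.3, numpy 2.4.6 and SciPy 1.17.1, and were tested on simulated data.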

Additional observations from a re-analysis of the deposited data

How the results depend on the processing

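The count of 11034 common regions was within 1.5 times of itself when lists were compared by overlap. It was 5753 with at least 30 scaled reads in each library, 5707 with 20 times the input, 5009 with white lists cut to the size of the BAT list, and, in checks chosen after seeing the data, 3414 with at least 17 reads in each library and 34055 without the BAT list. Cutting the white lists raised the medians to 100.7 (eWAT), 94.1 (iWAT) and 49.8 (BAT). With 20 times the input, the intergenic share was 51.4%, the start-site share 1.91% and the median distance 42.1 kb. Start-site shares were 11.5% within 5 kb and 20.2% within 10 kb. With the authors' scaling, 488 regions were higher in eWAT than iWAT, 165 higher and 4056 lower in BAT than eWAT, and 238 and 3864 for BAT and iWAT. Centred on the strongest 25% of regions, the BAT counts were 3590 and 142 against eWAT and 4407 and 189 against iWAT. Where the mean over libraries reached 60, 104 and 391 were higher and lower in eWAT than iWAT, 334 higher and 676 lower in BAT than eWAT, and 392 and 804 higher and lower in BAT than iWAT. With whole intervals past 2-fold, the counts were 46 and 447, 172 and 58, and 237 and 68. Within 10 kb, 1639 genes and 72 list genes had a common region. Another common region lay within 5 kb for 17.6% and within 20 kb for 40.3%. Alternatives that change a minimum, a window or the number of regions move counts by their own construction, and for the scalings the cause of the shift was not tested. Among the regions named for the largest ratios in each pair and direction, none changed direction under another scaling. Ratios nearer the median could change. At Zfp423, BAT was 1.11-fold of iWAT relative to the median common region and below iWAT with the authors' scaling. No paired analysis was possible because each depot had 1 library, and no library could be left out within a depot. BAT depth limits low values: a listed BAT region can rest on 6 reads.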

Other observations

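The identifiers of the deposited regions end in a number from 1 to 3, whose meaning no header states. It was 3 for 82.0% of the common regions, 2 for 14.1% and 1 for 3.94%. For the regions of both white lists alone it was 3 in 3.33% and 2 in 84.2%, and for those listed in BAT alone it was 1 in 79.4%.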
